A study of Delphinapterus leucas with 24 samples.

Results

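Blood of wild beluga whales (Delphinapterus leucas, an Arctic toothed whale) of Bristol Bay, Alaska, was compared between the end and the beginning of the 2013 sampling season. Of the 24 blood RNA libraries of the study, the 8 of 2013 were used, chosen by the sampling date in the labels. The late group held 4 libraries, from 28 August (1 female, 1 male) and 30 August (1 male, 1 female). The early group held 4 libraries, from 23 August (1 male) and 24 August (1 male, 2 females). Each group therefore had 2 females and 2 males, so that sex was balanced against date. The remaining libraries, 8 from September 2012 and 8 from 25 August to 3 September 2014, were used to set the scale between libraries, the most abundant genes and the abundance classes, and to place these values. All animals were sampled in the wild, and no treatment is given. The labels give neither age, time of day nor body condition, nor whether an animal was sampled again. They do not say what else differed between the days, so date cannot be told apart from anything that changed with it.

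Whole blood holds RNA of white cells, of platelets and of young red cells, which have lost their nucleus but keep messenger RNA for a short time. Red cells in the making devote most of their messenger RNA to a very small number of genes. The share of such genes in a blood library therefore moves with the mix of cells, and in a measure that sums to a fixed total it changes the level listed for every other gene. In bulk blood, fewer cells of a type and less RNA per cell cannot be told apart. The values analysed were TPM (transcript levels as parts of a fixed total per library), which keep no sequencing depth, so the depth of the libraries is unknown. TPM was summed over the assembled transcript groups, called features here, that carry the same Entrez Gene ID, which gave 9856 genes. The deposited table pairs these IDs with no gene symbol, so genes are given by ID and without a role. For the same reason blood cell markers were not analysed here, and the tissue label was not checked against them.

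The late libraries had less of their TPM in a few genes. The 3 most abundant genes over the 24 libraries were Entrez Gene IDs 3043, 3040 and 3106. Their share of the deposited TPM was 9.46%, 8.72%, 15.8% and 34.7% in late replicates 1 to 4, against 23.4%, 46.3%, 36.0% and 41.8% in early replicates 1 to 4. Of the late libraries 3 lay below every early one, and late replicate 4 lay above early replicate 1, so the groups overlapped. The mean was 17.2% ± 12.1 (SD, n = 4) in late libraries and 36.9% ± 9.88 (SD, n = 4) in early libraries, a difference of -19.7 percentage points (two-sided exact permutation p = 0.0571).

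The difference in share lay in 2 of the 3 genes. Entrez Gene ID 3043 had 41856, 37479, 74766 and 182969 TPM as deposited in late replicates 1 to 4, against 117271, 247872, 188031 and 212505 TPM in early replicates 1 to 4. Entrez Gene ID 3040 had 38880, 38519, 72299 and 153943 TPM in late libraries, against 108181, 203865, 162940 and 196480 TPM in early libraries. Both genes ranked the libraries in nearly the same order, with late replicates 1 and 2 lowest and early replicate 2 highest. Entrez Gene ID 3106 went the other way on this scale, with 8240 to 12646 TPM in late libraries against 7170 to 7955 TPM in early libraries, without overlap. That order did not hold after scaling between libraries, where the late libraries had 7430 to 8370 TPM and the early ones 7420 to 10000 TPM.

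The share did not follow the day step by step. The libraries of 28 August had 9.46% and 8.72%, and those of 30 August had 15.8% and 34.7%, closer to the early group. Late replicate 4, which had the highest share of its group, also came from the southernmost site of the 8, at latitude 58.8934 degrees against 59.0133 to 59.053 degrees for the others. The part of the site in its value was not tested. Both sexes were found at either end, since the late females had 9.46% and 34.7% and the late males 8.72% and 15.8%, against 36.0% and 41.8% in early females and 23.4% and 46.3% in early males.

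**Figure D1:**
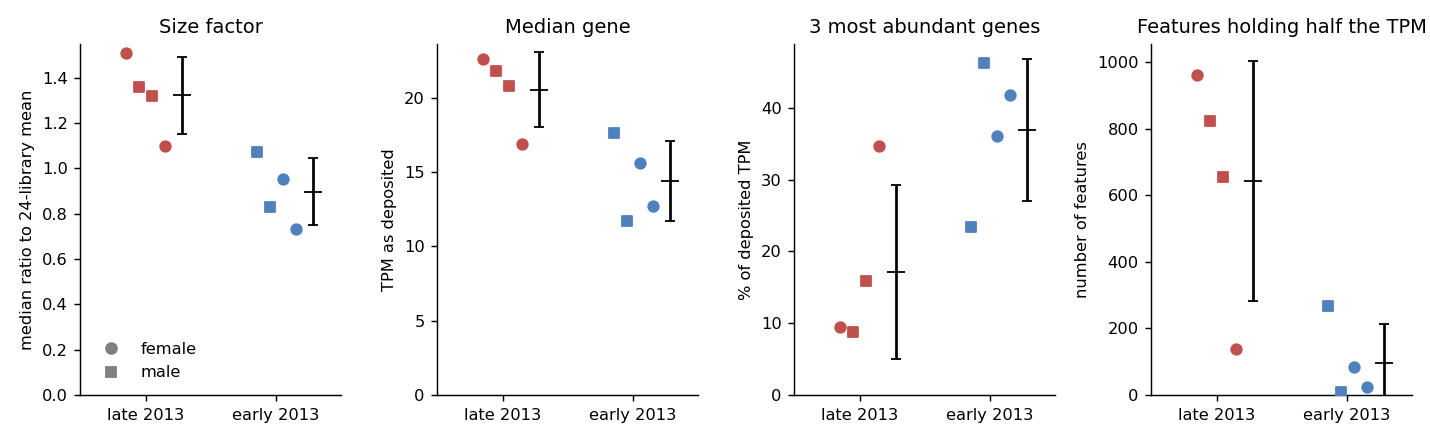
Each panel shows the 8 libraries of 2013, late left and early right, as a size factor (the median, over features, of a library's ratio to the mean library), the median gene in TPM, the percentage of TPM in the 3 most abundant genes, and the number of features that together hold 50% of the TPM. Circles are females, squares are males, and bars show the mean with its SD (n = 4). Size factors of the late libraries, 1.1 to 1.51, all lie above those of the early libraries, 0.733 to 1.07, while the other panels overlap because of late replicate 4 and early replicate 1.

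The genes in the middle of the range were listed at higher levels in late libraries. The median gene had 22.6, 21.8, 20.8 and 16.9 TPM in late replicates 1 to 4, against 17.6, 11.7, 15.6 and 12.7 TPM in early replicates 1 to 4 (means 20.6 ± 2.52 and 14.4 ± 2.71 TPM, SD, n = 4 each, exact permutation p = 0.0571). The number of features that together held 50% of the TPM was 961, 823, 654 and 137 in late libraries, against 267, 8, 85 and 23 in early libraries. The 100 most abundant features of a library held 28.9% to 48.3% of its TPM in the late group and 42.7% to 60.6% in the early group. Size factors, by which the libraries were scaled, were 1.51, 1.36, 1.32 and 1.1 in late libraries and 1.07, 0.828, 0.955 and 0.733 in early libraries. They averaged 1.32 ± 0.17 and 0.897 ± 0.148 (SD, n = 4 each) and did not overlap (exact permutation p = 0.0286, the smallest that 4 against 4 libraries allow). Genes listed at 0 numbered 3 to 10 in late libraries and 8 to 17 in early libraries (exact permutation p = 0.286). After adjustment over these 4 measures none passed, with adjusted p = 0.0762 for the size factor, the median gene and the share by the exact permutation tests.

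The share of the 3 genes ran from 4.0% to 54.9% with a median of 14.5% in 2012, and from 22.0% to 54.7% with a median of 32.2% in 2014. Both groups of 2013 lay within the range of 2012, but the upper end of that range was 1 library, 2012 replicate 1. The next highest library of 2012 had 17.9%, below every early library and late replicate 4. Of the 4 late libraries, 3 lay below the lowest library of 2014. In 2012 the 2 libraries of 12 September had 8.65% and 4.0%, and those of 1 September had 54.9% and 16.5%. Between them came 12.5% and 11.7% on 8 September, 17.0% on 9 September and 17.9% on 10 September. In 2014 the shares of 25 and 26 August were 25.6% and 27.3%, and that of 3 September was 37.2%. Between them came 22.0% and 54.7% on 28 August, 44.3% on 29 August, and 26.6% and 41.6% on 31 August. Within 2014 the last library thus did not have the lowest share.

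**Figure D2:**
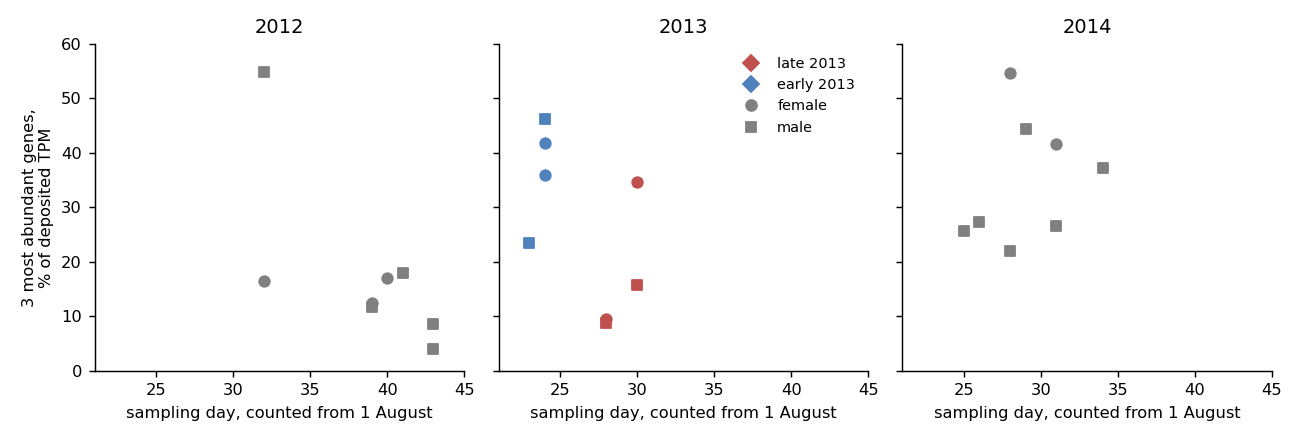
Percentage of deposited TPM in the 3 most abundant genes against the sampling day, counted from 1 August, with 1 panel per season and 1 point per library (circles female, squares male; late and early 2013 coloured). In 2013 the early libraries lie between 23.4% and 46.3% and the late ones between 8.72% and 34.7%, with late replicate 4 inside the early range.

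The question for single genes was which of them differed between the late and the early days once libraries were brought to a common scale. Each library was divided by its size factor, and 9823 genes with at least 1 scaled TPM in 4 or more of the 8 libraries were tested as log2(TPM + 1) with limma, with sex in the model. No gene passed at a Benjamini-Hochberg adjusted p of 0.05 (0.0% in either direction), and the smallest adjusted p was 0.377. At an unadjusted p under 0.05, 220 genes (2.24%) were higher and 380 (3.87%) lower in late libraries, and limma without trend gave 624 such genes. The lean to lower values depended on the scaling, with 341 higher and 363 lower with size factors from the 8 libraries of 2013 alone, and 361 higher and 324 lower under quantile normalisation. Differences were small, with 96.1% of genes within 0.5 of 0 on the log2 scale and a median standard error of 0.17. A difference of 1 or more was estimated for 7 genes higher and 43 genes lower in late libraries. With libraries weighted by their fit to the model, 425 genes passed, 138 higher and 287 lower. These weights ran from 0.169 for early replicate 2 and 0.306 for early replicate 4 to 3.65 for late replicate 3 and 5.06 for early replicate 1.

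On the TPM as deposited the picture was another. There the median difference over 9834 genes was 0.48, 9547 genes were higher in late libraries, and 1219 (12.4%) passed as higher against 21 (0.214%) as lower. At an unadjusted p under 0.05 the counts were 4604 (46.8%) and 41 (0.417%). Scaling moved the median difference to -0.04. All 1219 genes that passed as higher were also above 0 after scaling. Of them, 219 were among the 220 genes higher at an unadjusted p under 0.05, as were all 21 lower ones among the 380. Both scales hold the same libraries and differ by the size factors, so this overlap is not separate support. The deposited count moved with single libraries. It was 50, 129, 105 and 2596 without late replicates 1, 2, 3 and 4. Without early replicates 1, 2, 3 and 4 it was 4503, 925, 1582 and 187. With the 3 most abundant genes left out and the rest rescaled to a fixed total, 0 genes passed and the median difference was 0.12 (1039 genes at an unadjusted p under 0.05).

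**Figure D3:**
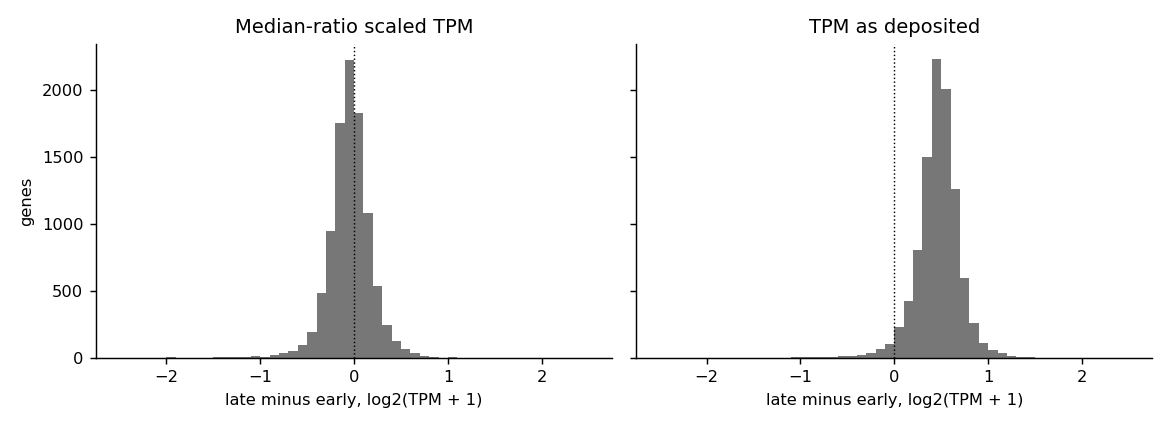
Number of genes by late minus early difference on the log2(TPM + 1) scale, in steps of 0.1, after median-ratio scaling (left) and for TPM as deposited (right). The median lies at -0.04 after scaling and at 0.48 as deposited.

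In 111 genes (1.13%) all 4 late libraries lay above all 4 early ones after scaling, and in 239 genes (2.43%) all 4 lay below. With no difference, such separation is expected in a share of 0.0286 of genes, both directions together. That is the smallest two-sided exact permutation p for 4 against 4 libraries. The 239 lower genes were listed at higher levels, with a median of 26.5 scaled TPM over the 24 libraries. It was 12.0 for the higher ones and 16.6 for all genes tested. As deposited, 2561 genes (26.0%) lay above and 6 (0.061%) below. All 111 and all 6 were separated the same way on both scales. Every late size factor exceeded every early one, so this had to be so and is not separate support. Leaving out a library makes such separation easier to reach, and the scaled counts then ran from 161 to 348 above and from 321 to 461 below, or 1105 below without early replicate 2.

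After scaling, the median difference was lower in the classes of more abundant genes. In the class under 5 scaled TPM (mean over 24 libraries, 1546 genes) the median difference was 0.01. It was -0.01 from 5 to 20 TPM (3977 genes), -0.07 from 20 to 100 TPM (3598 genes), -0.14 from 100 to 1000 TPM (662 genes) and -0.31 at 1000 TPM or more (40 genes). In the top class 15 of 40 genes had an unadjusted p under 0.05, all lower in late libraries, and in 11 genes the late libraries were all below the early ones. Above 100 TPM no gene had all late libraries above all early ones. Without early replicate 4 the class medians below 1000 TPM lay between -0.04 and 0.01, so little decline was left up to that level. With any other library left out, the class from 100 to 1000 TPM had a median of -0.26 to -0.1. With each library left out in turn the median of the top class stayed between -0.41 and -0.21. In females alone it was -0.55, and in males alone -0.1. In males the class medians below 1000 TPM lay between 0.02 and 0.08, so that they showed no decline with abundance up to that level. Quantile normalisation, which gives every library the same set of levels, brought it to 0.0 by its construction.

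**Figure D4:**
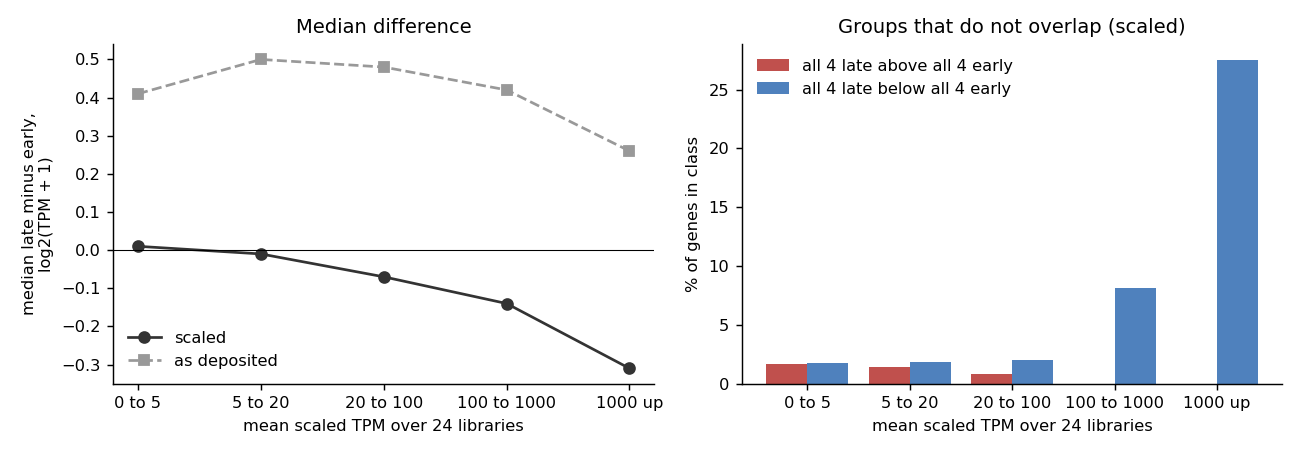
Genes grouped by mean scaled TPM over the 24 libraries. The left panel gives the median late minus early difference per class after scaling (-0.31 in the top class) and as deposited (0.26 there), and the right panel the percentage of genes whose groups do not overlap after scaling, with late above beside late below.

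The genes with the smallest unadjusted p after scaling are given in full, 2 per direction, although none of the 4 passed the adjustment. Entrez Gene ID 9672, listed as 1 feature, had 19.5, 31.2, 22.3 and 41.6 scaled TPM in late replicates 1 to 4, against 8.78, 9.17, 12.5 and 7.48 in early replicates 1 to 4. Every late library was above every early one. The means were 28.7 ± 9.96 and 9.49 ± 2.15 scaled TPM (SD, n = 4 each), and the difference was 1.46 ± 0.24 (SE, log2 scale; limma adjusted p = 0.377), the highest of all genes tested. It was 1.47 in females and 1.46 in males.

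Entrez Gene ID 644150, the sum of 2 features, had 9.36, 8.18, 6.03 and 9.75 scaled TPM in late libraries, against 3.6, 2.37, 5.3 and 5.2 in early libraries. The groups did not overlap, and late replicate 3 came nearest to the early range. The difference was 0.89 ± 0.16 (SE, limma adjusted p = 0.377). Its features differed by 0.6 and 0.89, both higher in late libraries.

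Entrez Gene ID 8501 had 6.14, 7.51, 7.04 and 8.13 scaled TPM in late libraries, against 17.5, 18.3, 10.9 and 15.8 in early libraries. All late libraries lay within a narrow band below the early ones. The difference was -1.0 ± 0.16 (SE, limma adjusted p = 0.377), and -0.81 in females and -1.19 in males.

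Entrez Gene ID 5349 had 7.47, 3.2, 5.61 and 17.0 scaled TPM in late libraries, against 16.9, 42.5, 39.6 and 30.5 in early libraries. Late replicate 4 and early replicate 1, which also had the highest and the lowest share of abundant genes in their groups, were level with each other, and the other libraries did not overlap. The difference was -1.97 ± 0.34 (SE, limma adjusted p = 0.377), close to the -2.0 ± 0.55 of Entrez Gene ID 3043 and the -1.91 ± 0.52 of Entrez Gene ID 3040 (limma adjusted p = 0.443 and 0.44). Entrez Gene IDs 3043, 3040 and 5349 were thus lower by similar amounts in the same libraries, and no contrast between these genes was tested. With the log2 share of the 3 most abundant genes as a covariate, the difference of Entrez Gene ID 5349 was -0.98 (limma adjusted p = 0.99). In the same fit Entrez Gene IDs 9672, 644150 and 8501 had 1.82, 0.71 and -0.78. The limma adjusted p of 0.99 was the smallest of all genes in that fit, so it is not particular to Entrez Gene ID 5349.

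**Figure D5:**
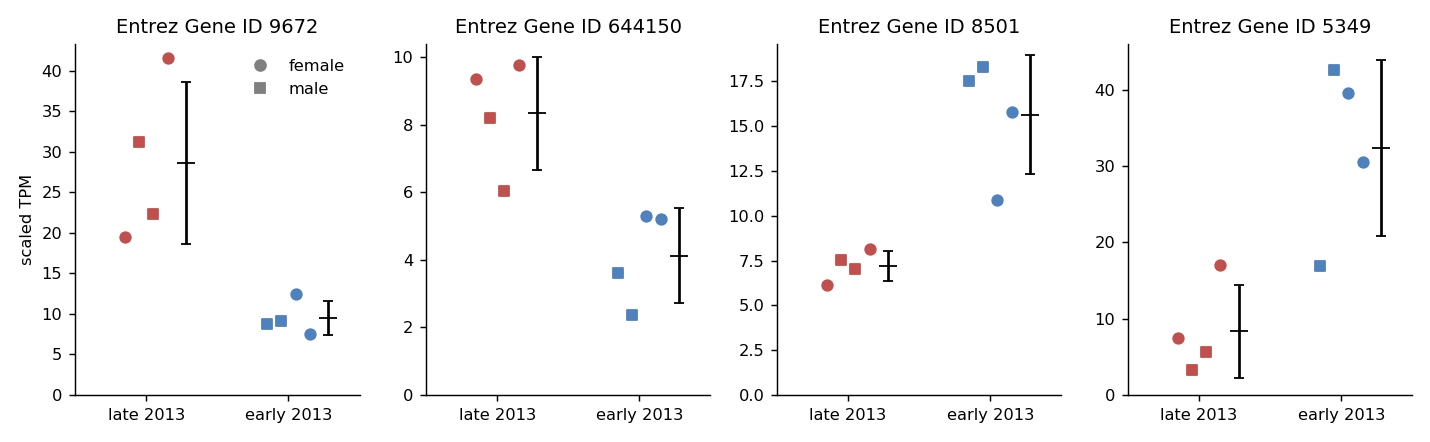
Scaled TPM of Entrez Gene IDs 9672, 644150, 8501 and 5349 in the 8 libraries of 2013, late left and early right, with circles for females, squares for males and bars for the mean with its SD (n = 4). The first 3 genes show no overlap between groups, and in the fourth late replicate 4 (17.0) and early replicate 1 (16.9) meet.

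As deposited, Entrez Gene IDs 9672, 644150 and 5349 passed, with differences of 1.99, 1.38 and -1.46 (limma adjusted p = 5.62e-12, 0.00011 and 6.33e-06), and Entrez Gene ID 8501 did not, with -0.49 (limma adjusted p = 0.106). In that fit limma gave most genes of a level the same variance, so these p-values rest on the spread of all genes. With library weights after scaling all 4 passed (limma adjusted p = 0.00898, 0.0107, 0.0138 and 0.00385 in the same order, with Entrez Gene ID 8501 last).

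At the level of single features 44676 were tested after scaling, and 1 passed. TR22222|c0_g1, which carries no annotation, had 0.371, 0.251, 0.106 and 0.264 scaled TPM in late libraries, against 5.42, 2.45, 5.48 and 7.98 in early libraries. It was low in all late libraries and the groups did not overlap, with a difference of -2.27 ± 0.24 (SE, limma adjusted p = 0.0412). All its late values lay under the filter of 1 scaled TPM, so it was tested through its early libraries alone. The fit of single features was not repeated with a library left out. Of all features tested, 897 (2.01%) had all late libraries above all early ones and 734 (1.64%) all below. The share expected with no difference, both directions together, is 0.0286 here too (smallest two-sided exact permutation p). Features without annotation leaned to higher values in late libraries, 648 against 348 of 26908, and those with an Entrez Gene ID to lower values, 182 against 320 of 13905. The classes differ in level, with a median of 2.18 and 9.25 scaled TPM, and the part of level in this was not tested.

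The spread between libraries was unequal. On the log2 scale the median gene had an SD of 0.18 among the late libraries and 0.26 among the early ones, and 30.6% of genes had the larger SD in the late group. Spearman correlations across genes ran from 0.963 to 0.985 among late libraries, from 0.936 to 0.977 among early libraries and from 0.948 to 0.985 between the groups (genes are not independent replicates). The first principal component of the scaled values, 33.8% of the variance, set early replicate 2 (29.0) and early replicate 4 (-30.4) at its ends, with the late libraries between -4.2 and 14.1. The largest axis of variation therefore ran within the early group and not between the groups.

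Whether the difference between late and early days itself differed by sex was tested as an interaction, with 2 libraries in each of the 4 cells. No gene passed in limma after scaling (0 of 9823, smallest adjusted p = 0.246, 500 at an unadjusted p under 0.05, and 0 passed without trend). As deposited 9 passed. The median late minus early difference was 0.07 in males and -0.14 in females. Of the interaction, the 2 genes with the smallest p per direction were Entrez Gene IDs 284680 and 80231, where the signed late minus early difference was higher in males, and 8727 and 4948, where it was higher in females.

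Entrez Gene ID 284680 had 0.629 and 2.23 scaled TPM in late females against 14.2 and 19.6 in early females, while late males had 2.54 and 1.57 against 2.13 and 1.55 in early males. The male minus female contrast of the late minus early difference was 3.04 ± 0.49 (SE, limma adjusted p = 0.442). Both early females stood above the other 6 libraries. In the other seasons this gene ran from 0.586 to 16.2 scaled TPM in males and from 0.942 to 11.9 in females. Entrez Gene ID 8727 had 9.84 and 6.0 scaled TPM in late females against 2.95 and 2.66 in early females, and 2.11 and 2.72 in late males against 8.96 and 7.77 in early males. The sexes thus lay in opposite order, with a contrast of -2.65 ± 0.37 (SE, limma adjusted p = 0.246). Entrez Gene ID 80231 differed by -1.22 in females and 0.06 in males, and Entrez Gene ID 4948 by 1.27 in females and -0.84 in males (limma adjusted p = 0.749 for both contrasts).

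The other seasons give the direction with date in libraries that the 2013 comparison did not use. In 2012 the sites of 1 September lay at 59.034033 and 59.053067 degrees, and those of 12 September at 58.8623 and 58.7598. In 2014 the latitude was 59.05273 on 25 August and 58.816445 on 3 September. Its replicates 2 and 5 were labelled 50.052923 and 50.052828. Latitude was not in the slope fits, so date and site cannot be told apart there. Of the 376 genes lower in late 2013 at an unadjusted p under 0.05 that were also tested in 2012, 309 (82.2%) had a negative slope per day in 2012, against 66.1% of all 9780 genes tested in both. In 2014 it was 323 of 378 (85.4%), against 74.4% of 9768. Of the genes higher in late 2013, 93 of 217 (42.9%) had a positive slope in 2012, against 33.9% of all genes, and 141 of 216 (65.3%) had one in 2014, against 25.6%. All 4 shares were above that of all genes, and they are descriptions, since genes of a library move together. Most genes higher in late 2013 still had a negative slope in 2012, 124 of 217 (57.1%). In neither season did a gene pass in limma after scaling (0 in both, with 667 and 1106 genes at an unadjusted p under 0.05 in 2012 and 2014).

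Of the 4 named genes, 3 had the same sign of slope in each season. Entrez Gene ID 5349 had a slope of -0.31 ± 0.085 per day in 2013, -0.338 ± 0.099 in 2012 and -0.126 ± 0.105 in 2014 (SE, log2 scale). Entrez Gene ID 8501 had slopes of -0.172 ± 0.036, -0.104 ± 0.03 and -0.075 ± 0.051 in the same order of years, downward in each. Entrez Gene ID 644150 had slopes of 0.149 ± 0.037, 0.04 ± 0.022 and 0.014 ± 0.044. Replicate 1 of 2012, from 1 September, had 69.9 scaled TPM of Entrez Gene ID 5349, against 0.193 to 11.9 in the other libraries of 2012. For Entrez Gene ID 8501 that library had 23.6, against 5.05 to 13.9 in the others. No slope of 2012 or 2014 was refitted with a library left out. Entrez Gene ID 9672 had slopes of 0.267 ± 0.044, -0.063 ± 0.039 and -0.038 ± 0.028, positive in 2013 and negative in the other seasons. Its slope in 2013 exceeded that of 2012 by 0.324 ± 0.059 (SE, limma adjusted p = 0.144) and that of 2014 by 0.306 ± 0.069 (SE, limma adjusted p = 1.0), so the difference between seasons did not pass. Its levels in late 2013 lay within the 10.7 to 38.2 scaled TPM of 2012 apart from late replicate 4, and the early libraries, apart from replicate 3 at 12.5, lay below the lowest library of either other season (10.7 in 2012 and 21.6 in 2014).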

How the data were processed

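The deposited table holds TPM per assembled feature in 24 libraries. RNA came from whole blood with a PAXgene kit and was made into directional NEBNext libraries, per the labels. Trimmomatic, Bowtie2 and RSEM 1.2.21 are named per the submitters' processing notes without role or order, and the series' design text names a Trinity assembly. The unit was read from the values, which are not whole and sum to between 987069 and 997966 per library. The lowest mean of a listed feature was 0.995 TPM, so the table had been filtered.

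Of 45872 features, 14080 carry an Entrez Gene ID, and their deposited TPM was summed per ID. In 1 ID a date stands in place of the number, and it was kept as an ID of its own. Size factors were median ratios over the 42462 features above 0 in all 24 libraries. Fits used limma 3.58.1 in R 4.3.3 (trend and robust options) on log2(TPM + 1), which understates the change of low genes, with p-values adjusted over all genes tested. Library measures were compared by exact permutation with scipy 1.17.1. The fit was tested on simulated data. The slopes per day used sex as a covariate within each year, and their difference 1 fit over all libraries.

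Members, lists and tests were chosen with earlier results of these data known. The rule for named genes was the smallest unadjusted p, 2 per direction, since none passed and no symbols were paired. The gene lists and cell markers, written as symbols, were not used here. The single feature that passed and the abundant genes were named after their values were seen. Labels do not say that each library is a separate animal, so p-values measure the spread between libraries.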

Additional observations from a re-analysis of the deposited data

How the results depend on the processing

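After scaling, 0 genes passed in 22 of the 25 alternatives run for late minus early, among them quantile normalisation, a pseudocount of 0.1, no filter, a filter at 5 TPM, latitude or the log2 share of the 3 abundant genes as a covariate, all 24 libraries, each sex alone and each library left out. The exceptions were TPM as deposited (1240), library weights (425) and single features (1). On the deposited scale, in alternatives chosen after seeing the data, the count was 50 to 4503 with each library left out, 750 without trend or robust option, 0 with the 3 abundant genes left out, 3 with their log2 share as a covariate and 3 with all 24 libraries. The interaction with sex gave 9 as deposited. The slope in 2012 gave 5914 as deposited. The cause of these changes was not tested, beyond the scale itself. The 4 named genes of the main comparison kept their direction in all alternatives. They were chosen by their p in the same libraries, so this is not separate support. Apart from the slope per day, which has another unit, and single features, the differences were 1.25 to 1.99 for Entrez Gene ID 9672. They were 0.71 to 1.38 for 644150, -1.19 to -0.49 for 8501 and -2.41 to -0.98 for 5349. No paired analysis was possible because the labels give the late and early libraries no shared numbers. What depth limits is not known, since TPM does not keep it.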
